A study of Mus musculus with 2 samples.

Results

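The 9 genes described here encode the machinery by which cells load and display peptides on MHC class II: Cd74, H2-Aa, H2-Ab1, H2-Eb1, H2-DMa, H2-DMb1, H2-DMb2, Ciita and Ifi30. They were chosen by their symbols from the 32285 genes listed in 2 single-cell count matrices of mouse liver, and all 9 were found in both. Levels were read in barcodes of 500 UMIs and 200 genes or more whose mitochondrial share did not exceed 20%. A UMI is a molecular tag by which PCR copies of the same RNA molecule are counted a single time.

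The GS-KO library came from 1 tumour-bearing Glul f/f mouse that received AAV8-Cre. The control library came from 1 tumour-bearing Glul f/f mouse that received AAV8-GFP. Both carried β-catenin-mutant liver tumours according to the series title and were taken 7 weeks after the virus, with floxed Glul, the glutamine synthetase (GS) gene, in each. The digested liver cells were selected on beads against F4/80, which macrophages carry on their surface, and dead cells were removed. AAV8 is a vector that reaches mainly hepatocytes, so macrophages and lymphocytes are not the cells it mainly targets. Strain, age and sex are not given in the labels.

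Each group is 1 mouse, so the groups cannot be tested against each other and values are set only against counting error. All intervals are 95% intervals that cover counting error only, not the difference between mice or between cells of a mouse. The GS-KO library held 8805330 UMIs in 1366 barcodes, of which 662 met the cell rule and 655 remained after doublet removal. The control library held 64770011 UMIs in 5074 barcodes, of which 3275 met the rule and 3251 remained. The median depth of these cells was 4104 UMIs in the GS-KO and 7320 in the control library. The labels state a minimum of 7500 cells per library, more than the barcodes in either matrix. The libraries shared 1 barcode, and 0 among the kept cells. Glul, the targeted gene, had 101 CPM (counts per 1000000 UMIs; 72.5 to 138) in GS-KO and 3212 CPM (3186 to 3239) in control hepatocyte-like cells. In Kupffer-like cells Glul had 199 CPM (157 to 248) in GS-KO and 267 (256 to 277) in control cells.

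MHC class II molecules are built from an alpha and a beta chain and carry peptides from engulfed material to CD4 T cells. Cd74, the invariant chain, holds the groove closed until proteases trim it, and H2-DM then swaps the last piece of Cd74 for a peptide. Ciita is the coactivator on which transcription of the chains, Cd74 and H2-DM depends, while Ifi30 can be expressed without it. Kupffer cells (the resident macrophages of the liver), dendritic cells and B cells are the main professional presenters in liver, while T cells, neutrophils and hepatocytes ordinarily carry little.

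Ciita does not bind DNA itself. It is recruited by factors that sit on a pair of short promoter elements, the X box (bound by the RFX complex and CREB) and the Y box (bound by NF-Y), and the promoters of 4 members are shown because they carry that pair at like spacing. The sequences are from RefSeq on GRCm38.p6, read 5′ to 3′ on the gene's own strand. Capitals mark first CTNNNAAC, letters within the X box, and then TGATTGG, the Y box with its inverted CCAAT. These letters were chosen after the promoters had been looked at.
H2-Aa: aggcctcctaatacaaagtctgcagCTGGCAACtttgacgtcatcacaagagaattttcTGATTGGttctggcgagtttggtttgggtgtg
H2-Eb1: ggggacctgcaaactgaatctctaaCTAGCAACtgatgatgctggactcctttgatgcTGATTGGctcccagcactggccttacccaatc
H2-DMb1: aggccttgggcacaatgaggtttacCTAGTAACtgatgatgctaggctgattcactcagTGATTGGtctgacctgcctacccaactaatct
H2-DMb2: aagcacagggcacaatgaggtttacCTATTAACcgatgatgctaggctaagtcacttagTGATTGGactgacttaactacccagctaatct

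The windows are chr17:34287842-34287932 (minus strand) for H2-Aa, chr17:34305748-34305837 (plus) for H2-Eb1, chr17:34153069-34153159 (plus) for H2-DMb1 and chr17:34145098-34145188 (plus) for H2-DMb2. The gap between the capitals is 26 bases in H2-Aa, H2-DMb1 and H2-DMb2 and 25 bases in H2-Eb1. The X letters begin 84, 97 and 126 bases before the RefSeq start of H2-Aa, H2-DMb1 and H2-DMb2, and 94 bases before that of H2-Eb1. Searched on both strands over 32851 promoters of 300 bases (250 before the start and 50 after it), CTNNNAAC occurred in 41.1% and TGATTGG in 7.82%. The pair in this order, 12 to 40 bases apart, occurred in 71 promoters, 0.216%. The H2-DMa and Ifi30 promoter windows did not hold the pair, which says only that these letters are not in those windows. H2-Ab1, Cd74 and Ciita are named only.

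All positions are on GRCm38 in GENCODE M21. On chromosome 17, H2-Aa spans 34282744 to 34287823 (minus strand), H2-Ab1 34257689 to 34269419 (plus) and H2-Eb1 34305867 to 34316674 (plus). The H2-DM genes lie nearby, all on the plus strand, H2-DMa at 34119541 to 34139101, H2-DMb2 at 34143307 to 34151555 and H2-DMb1 at 34153072 to 34160230. Ciita spans 10480059 to 10528418 of chromosome 16 (plus), Ifi30 70762774 to 70766663 of chromosome 8 (minus) and Cd74 60803848 to 60812652 of chromosome 18 (plus).

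Cells were clustered without these genes and without the other class II genes, so that class II levels across clusters were not set by the clustering. Kupffer-like cells (23 GS-KO and 530 control cells) met 9 of 10 Kupffer markers. Mmp12 macrophage-like cells (27 and 439 cells) met 12 of 13 macrophage markers and 8 of the Kupffer markers, with Mmp12, Cd207 and Trem2 leading. Gpnmb macrophage-like cells (19 and 138 cells) met 10 of 13 macrophage markers, with Gpnmb, Ms4a7 and Syngr1 leading. A shallow macrophage cluster (28 and 245 cells) stayed unnamed, because its median depth was 1411.5 UMIs in the GS-KO and 1506 in the control library. Monocyte-like cells (51 and 105) met all 8 classical and all 8 non-classical monocyte markers, and B-like cells (120 and 470) met all 12 B markers. No cluster was led by dendritic cell markers. Kupffer-like cells nonetheless met 5 markers listed for type 1 dendritic cells, after their Kupffer and macrophage markers. Gpnmb macrophage-like cells met 2 listed for type 2, and the shallow cluster 2 of the shared dendritic list.

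The 9 genes together made up between 2.46% and 3.14% of all UMIs in B-like cells and in the Mmp12, Gpnmb and shallow macrophage groups of either library. In Kupffer-like cells they made up 1.21% in the GS-KO and 2.21% in the control library, and in monocyte-like cells 0.290% and 0.809%. In the GS-KO library Cd74 was highest in B-like cells at 18548 CPM (18175 to 18927). Gpnmb macrophage-like cells followed at 17216 (16710 to 17732), the shallow cluster at 14905 (13999 to 15854), Mmp12 macrophage-like cells at 14499 (14157 to 14848), Kupffer-like cells at 5676 (5444 to 5915) and monocyte-like cells at 1471 (1354 to 1595). The intervals of the shallow cluster and the Mmp12 group overlapped, and those of the other neighbours in this order did not. In the control library B-like cells were again highest at 16160 (15976 to 16347), followed by Mmp12 macrophage-like cells at 14688 (14609 to 14766), Gpnmb macrophage-like cells at 13946 (13804 to 14089), the shallow cluster at 12769 (12468 to 13074), Kupffer-like cells at 11503 (11432 to 11574) and monocyte-like cells at 4242 (4107 to 4379), with no overlap between neighbours. Kupffer-like cells were thus the lowest of the macrophage groups in both libraries. Transcripts were counted near their 3′ ends, so CPM values of different genes are UMI counts and not levels per length.

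**Figure D1:**
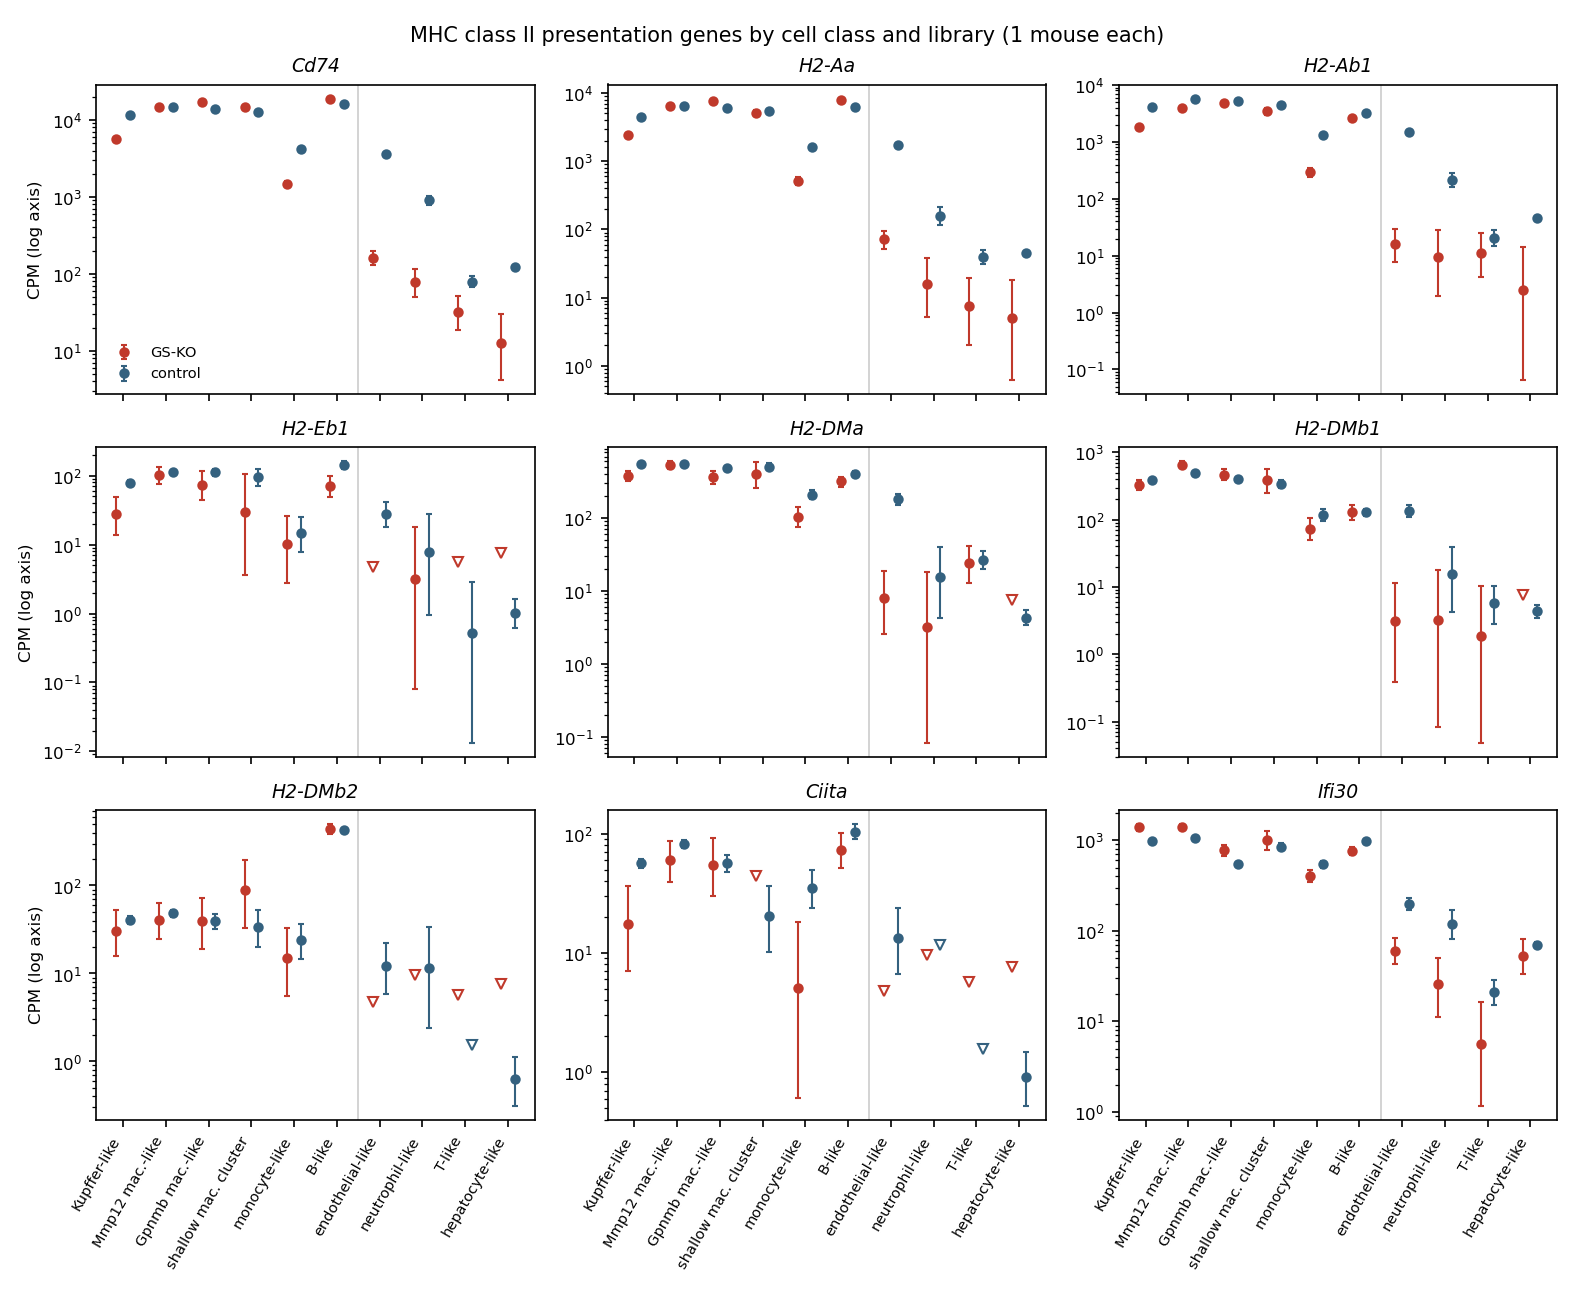
CPM of each gene (log axis) by cell class, GS-KO library left and red, control library right and blue, 1 mouse each; bars are 95% Poisson intervals and open triangles mark the limit that a count of 0 allows (3 counts). Classes left of the grey line hold most of the class II RNA, and H2-DMb2 stands out in B-like cells at 437 and 423 CPM.

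Kupffer-like cells showed lower class II RNA in the GS-KO library. Cd74, the invariant chain, had 5676 CPM in GS-KO and 11503 in control cells, 2.03-fold lower (1.94 to 2.11). H2-Aa, the alpha chain of the I-A molecule, had 2393 CPM in GS-KO and 4492 in control cells, 1.88-fold lower (1.76 to 2.00). H2-Ab1, its beta chain, had 1849 in GS-KO and 4030 in control cells, 2.18-fold lower (2.03 to 2.35). H2-Eb1, the beta chain of the I-E molecule, had 27.7 CPM from 11 UMIs in GS-KO and 79.3 CPM in control cells, 2.87-fold lower (1.59 to 5.77). All 4 were thus lower, and only the interval of the sparse H2-Eb1 reaches beyond 2.35-fold.

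Among the other members in Kupffer-like cells, the H2-DM chains differed less, Ciita was lower and Ifi30 was higher. H2-DMa, the alpha chain of the peptide exchanger, had 380 CPM in GS-KO and 555 in control cells, 1.46-fold lower (1.24 to 1.73). H2-DMb1, a beta chain of H2-DM, had 332 in GS-KO and 384 in control cells, a ratio of 0.865 (0.722 to 1.03). Ciita had 17.6 CPM from 7 UMIs in GS-KO and 56.6 CPM in control cells, 3.21-fold lower (1.55 to 8.03). Ifi30, the lysosomal reductase (GILT) that opens disulfide bonds of engulfed proteins, had 1389 CPM in GS-KO and 981 in control cells, a ratio of 1.42 (1.30 to 1.54). Against Cd74, there were 0.245 Ifi30 UMIs per Cd74 UMI in GS-KO and 0.0853 in control Kupffer-like cells.

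In all, 5 of the 9 members (Cd74, H2-Aa, H2-Ab1, H2-Eb1 and Ciita) were lower in GS-KO Kupffer-like cells by 1.5-fold or more, and 0 were that much higher. The background was 25% of 10296 genes lower and 11.7% higher. Here and in the other classes it holds every gene with at least 20 UMIs over both libraries and was not matched for level. Genes with few UMIs pass 1.5-fold more readily through counting error. The median log2 ratio (GS-KO over control) of the members was −0.91, against −0.13 over all genes tested. The Kupffer-like cells of the libraries were alike in depth, with a median of 16827 UMIs in GS-KO and 15782 in control cells, and in C1q RNA, with 22302 and 22384 CPM. Of 4 B-defining genes 1 was detected in GS-KO and 4 in control cells, at a summed 37.7 and 32.9 CPM, and of 6 dendritic-defining genes 1 and 4, at 2.52 and 6.91 CPM, with Flt3 and Cd209a at 0 in both.

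Few cells carried the GS-KO Kupffer-like sum. The cell with most UMIs of the 9 genes gave 27.8% of it and the top 3 gave 48.5%, and without them the median log2 ratio was −1.35 and −1.62. All control cells were kept in, so this removal pushes the ratio down by construction. Per cell, the 9 genes summed to 2202 to 42712 CPM with a median of 8599 in GS-KO cells, and to 1118 to 88376 CPM with a median of 19825 in control cells. At least 10000 CPM was reached by 8 of 23 GS-KO cells (34.8%) and 440 of 530 control cells (83.0%). The GS-KO range lay inside the control range, and no GS-KO cell was above 42712 CPM. With cells thinned to 1000 UMIs before summing, the median over the members was −0.31, where H2-Eb1 turned to 0.87 and H2-DMb2 to 0.92 on few UMIs and Ciita was at −5.14, a value that depends on the prior count, while Cd74 was at −1.12, H2-Aa at −1.14 and H2-Ab1 at −1.45.

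**Figure D2:**
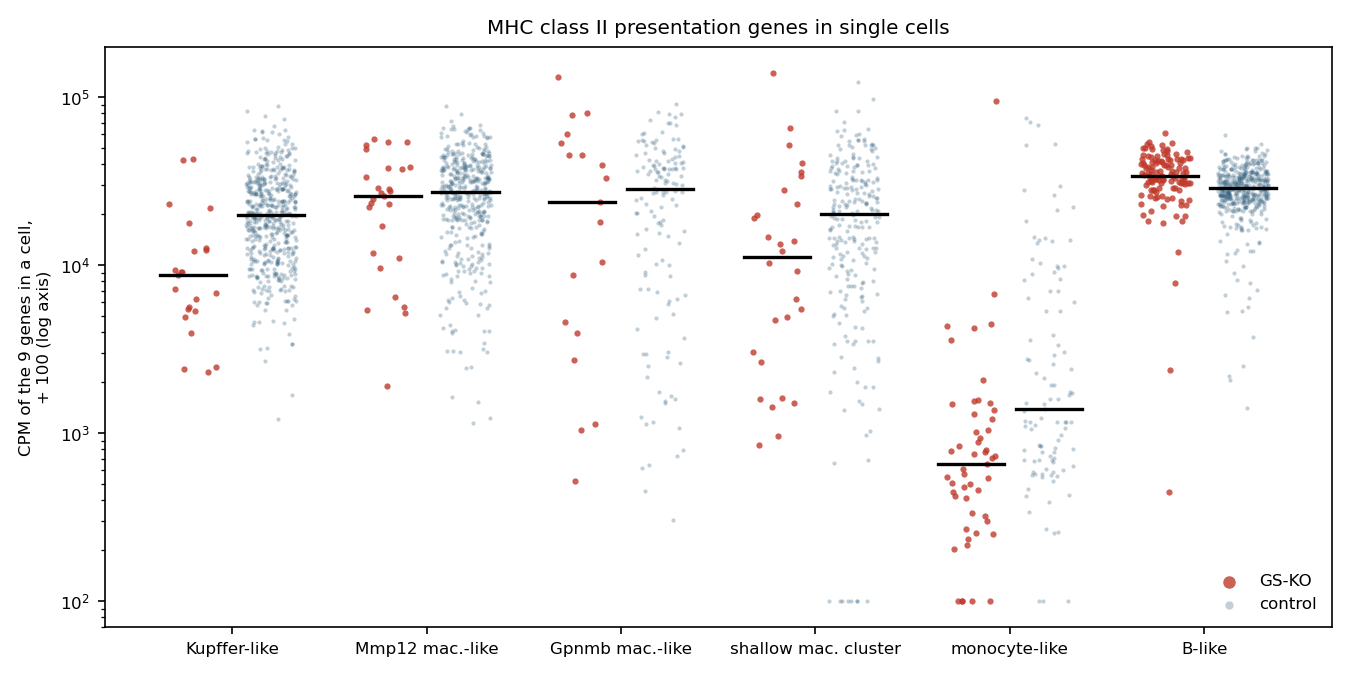
Summed CPM of the 9 genes in each cell, plus 100 (log axis), in the macrophage groups, monocyte-like and B-like cells; each point is a cell, GS-KO left and red, control right and blue, and black bars are medians. GS-KO Kupffer-like cells centre on 8599 CPM and control ones on 19825, and 1 GS-KO monocyte-like cell stands alone at 94825.

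In Mmp12 macrophage-like cells, Cd74 and H2-Aa were level between the libraries within counting error. Cd74 had 14499 CPM in GS-KO and 14688 in control cells, a ratio of 0.987 (0.963 to 1.01), and H2-Aa had 6468 in GS-KO and 6500 in control cells, a ratio of 0.995 (0.959 to 1.03). H2-Ab1 stood apart at 4003 CPM in GS-KO and 5715 in control cells, a ratio of 0.700 (0.669 to 0.733). H2-DMb1 had 659 in GS-KO and 494 in control cells, a ratio of 1.34 (1.19 to 1.5), and Ifi30 had 1399 and 1054, a ratio of 1.33 (1.22 to 1.44). Of the 9 members 0 were higher and 0 lower by 1.5-fold, beside 11.9% and 22.9% of 10280 genes. That background was not matched for level, so the members are not read as more stable than other genes. The median log2 ratio was −0.08, against −0.07 over all genes tested.

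Gpnmb macrophage-like cells had somewhat more pooled class II in the GS-KO library, but the cells were not alike between the libraries. Gpnmb itself had 321 CPM from 82 UMIs in GS-KO and 1190 CPM in control cells, and Mmp12 had 266 and 464 CPM. The part of this in the class II values was not tested. Cd74 had 17216 CPM in GS-KO and 13946 in control cells, a ratio of 1.23 (1.2 to 1.27), and H2-Aa had 7495 and 6074, also 1.23 (1.18 to 1.29). H2-Ab1 did not follow, at 4890 CPM in GS-KO and 5243 in control cells, a ratio of 0.933 (0.879 to 0.988). Ifi30 had 776 in GS-KO and 553 in control cells, a ratio of 1.40 (1.2 to 1.63). The member at least 1.5-fold lower was H2-Eb1, at 74.4 CPM from 19 UMIs in GS-KO and 112 in control cells, and 0 were higher, with a background of 22.5% lower and 17.9% higher among 8070 genes. The median was 0.00 and over all genes −0.02. The 3 GS-KO cells with most class II UMIs gave 44.1% of them. Without those 3 cells, and with all control cells kept, the median was −0.36 and Cd74 was at −0.28. The median cell was lower in the GS-KO library, at 23699 CPM in GS-KO and 28390 in control cells, though the pooled sum was higher. The highest cell had 132209 CPM in GS-KO and 90147 in control cells.

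The shallow macrophage cluster had 14905 CPM of Cd74 in GS-KO and 12769 in control cells, a ratio of 1.17 (1.09 to 1.25). H2-Ab1 had 3445 in GS-KO and 4453 in control cells, a ratio of 0.774 (0.673 to 0.885). Of 8 members with enough UMIs, H2-DMb2 was at least 1.5-fold higher, with 6 GS-KO UMIs and a ratio of 2.65 (0.861 to 6.96), and H2-Eb1 lower, with 2 GS-KO UMIs and a ratio of 0.312 (0.0367 to 1.18), with a background of 19.2% higher and 26.4% lower among 2962 genes. A cell gave 44.9% of the GS-KO UMIs of the 9 genes and the top 3 gave 71.2%. The median log2 ratio of 0.02 became −0.47 and −1.03 without them, with all control cells kept.

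**Figure D3:**
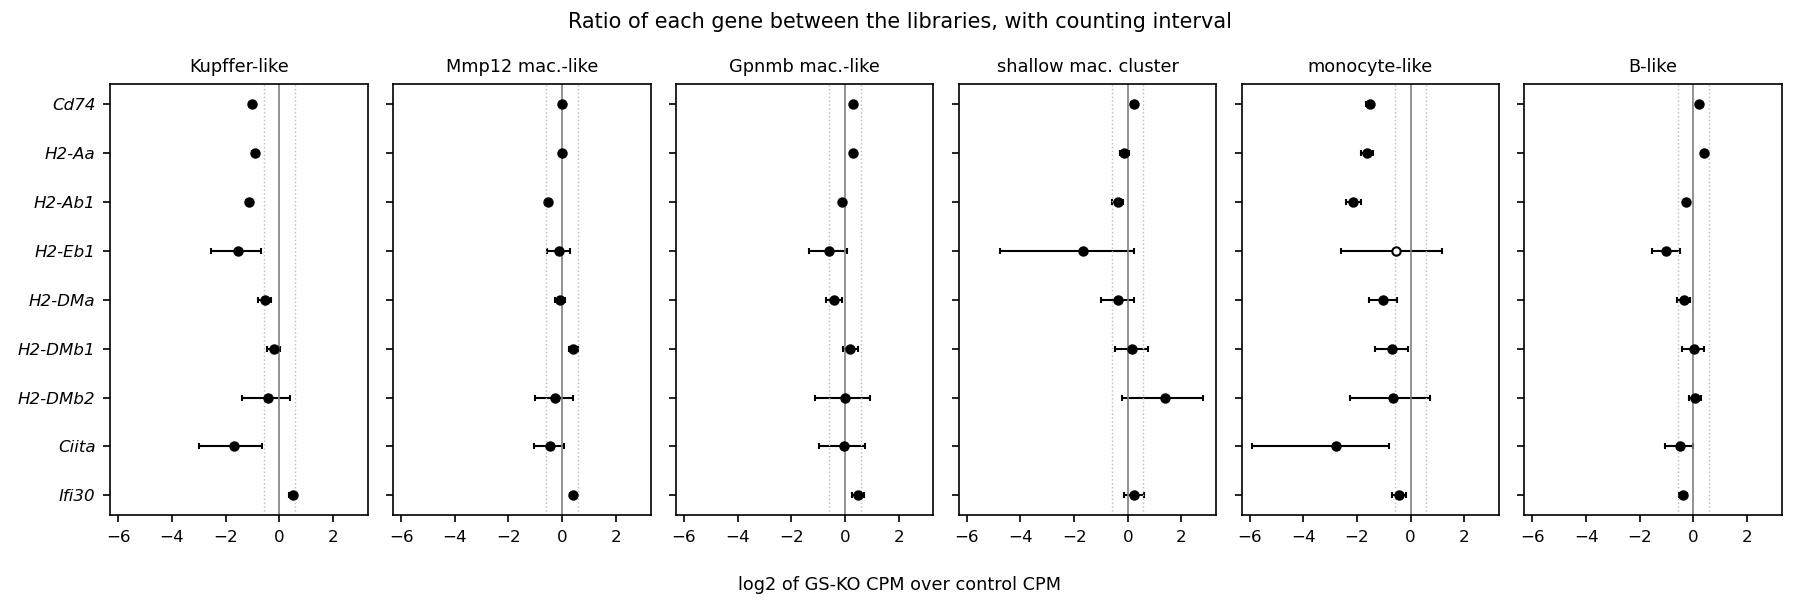
Log2 of GS-KO over control CPM for each gene in 6 cell groups, with 95% counting intervals; dotted lines mark 1.5-fold either way, the open point had under 20 UMIs over both libraries, and Ciita in the shallow cluster is not drawn because its GS-KO count was 0. Kupffer-like and monocyte-like cells lie left of 0 for most genes, and Ifi30 lies right of 0 in the 4 macrophage groups, with an interval that spans 0 in the shallow cluster.

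Finer clusters within the macrophage groups differed in class II level, as read from the sum of Cd74, H2-Aa, H2-Ab1 and H2-Eb1. Both finer Kupffer-like clusters were lower in the GS-KO library. The one led by Marco, Ccl24 and Gbp2b, with 11 GS-KO and 267 control cells, had 7946 CPM in GS-KO and 20295 in control cells, a ratio of 0.392. The one led by Fcna, Spic and Ccr3, with 10 and 246 cells, had 13495 in GS-KO and 20122 in control cells, a ratio of 0.671.

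In the Mmp12 group, the finer cluster led by Cxcl9, Clec4f and Cd207 had 24423 CPM in 11 GS-KO cells and 32869 in 193 control cells, a ratio of 0.743. The one led by Mmp12, Atp6v0d2 and Trem2 had 23020 CPM in 17 GS-KO cells and 24053 in 216 control cells, a ratio of 0.957. In the control library the Cxcl9 cluster was therefore the highest of these 4, and in the GS-KO library it was near the Mmp12 and Atp6v0d2 cluster. Cxcl9 is a chemokine known as a target of interferon gamma. A small finer cluster led by Retnla, Prg4 and Saa3 had 88.3 CPM in 2 GS-KO cells and 15310 in 9 control cells, too few to compare.

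**Figure D4:**
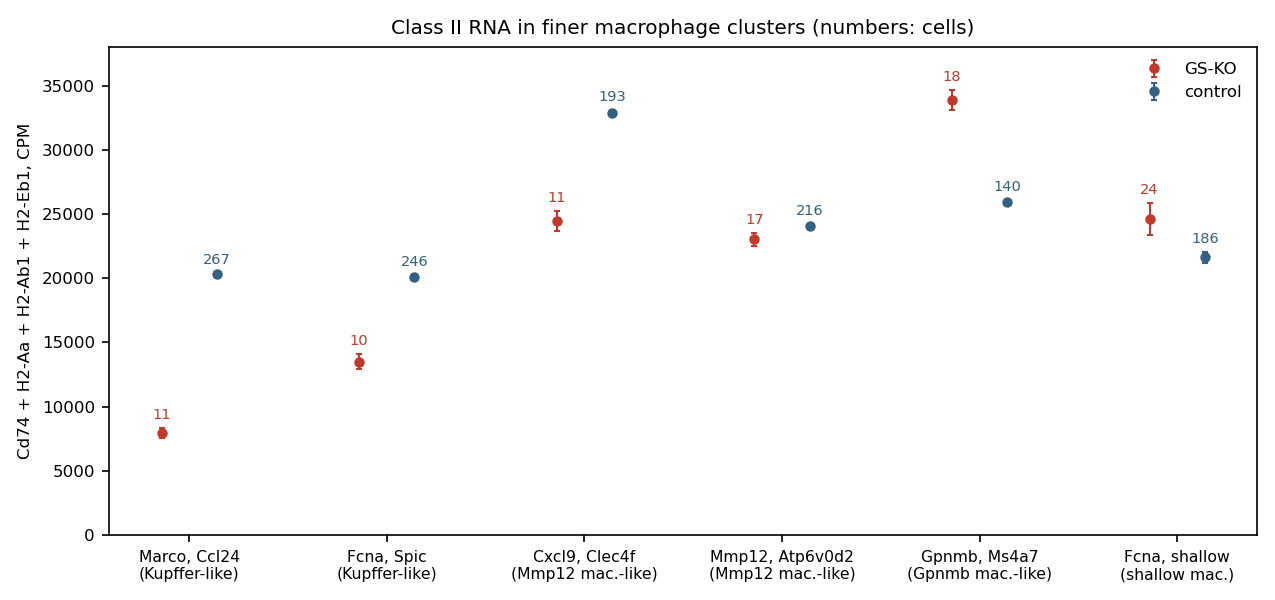
Summed CPM of Cd74, H2-Aa, H2-Ab1 and H2-Eb1 in the 6 larger finer macrophage clusters, GS-KO left and red, control right and blue, with 95% Poisson intervals and cell numbers above the points. The cluster led by Marco and Ccl24 has 7946 CPM in GS-KO and 20295 in control cells, and the cluster led by Gpnmb and Ms4a7 has 33889 and 25896.

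Monocyte-like cells carried little class II RNA and less of it in the GS-KO library. Cd74 had 1471 CPM in GS-KO and 4242 in control cells, 2.88-fold lower (2.64 to 3.15). H2-Aa had 516 in GS-KO and 1598 in control cells, 3.1-fold lower (2.68 to 3.61), and H2-Ab1 had 296 and 1302, 4.40-fold lower (3.64 to 5.37). H2-DMa had 104 CPM in GS-KO and 210 in control cells, 2.03-fold lower (1.44 to 2.92), and Ciita had 5.05 CPM from 2 UMIs in GS-KO and 35.0 CPM in control cells, a ratio of 0.144 (0.0167 to 0.567). Ifi30 differed least, with 407 in GS-KO and 546 in control cells, a ratio of 0.746 (0.620 to 0.893). Of 8 members with enough UMIs, 7 were lower by 1.5-fold or more and 0 higher, beside a background of 15.5% lower and 11.5% higher among 6173 genes. The median log2 ratio was −1.27, against −0.02 over all genes tested.

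Within the monocyte-like class the class II RNA sat in few cells. In the GS-KO library 1 cell of 51 gave 64.0% of the UMIs of the 9 genes, with 91.5% of the H2-Ab1 and 81.4% of the H2-Aa UMIs. That cell also held UMIs of Flt3 and Cd209a, which are markers of dendritic cells. Cells with UMIs of at least 2 of the 6 dendritic-defining genes were 3 in the GS-KO library, with 68.9% of the class II UMIs, and 2 in the control library, with 20.5%. The dendritic-defining genes summed to 85.9 CPM in GS-KO, with Zbtb46 and Xcr1 at 0, and to 53.1 CPM in control cells, with Xcr1 and Clec9a at 0. When every cell with a UMI of these genes was left out, the median log2 ratio was −2.94 (46 GS-KO and 94 control cells). That median is the value of Ciita, on at most 2 GS-KO UMIs, and its neighbours were Cd74 at −2.97 and H2-DMa at −1.32. The cell with 64.0% of the GS-KO class II UMIs was among those left out.

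Macrophage and B-cell RNA moved with the monocyte-like result. C1qa, C1qb and C1qc summed to 37.9 CPM in GS-KO and 1045 in control cells. Of 13 macrophage markers 12 were detected in GS-KO and 13 in control cells, with per-cell sums of 0 to 22983 CPM in GS-KO and 683 to 37191 in control cells, and the 4 B-defining genes summed to 80.9 and 191 CPM. Neutrophil RNA went the other way, with S100a8 at 329 CPM in GS-KO and 10.2 in control cells. The 9 neutrophil markers, of which 6 were detected in each library, had per-cell sums of 0 to 47291 CPM in GS-KO and 0 to 811 in control cells. The 8 classical monocyte markers summed to 6538 CPM in GS-KO and 6774 in control cells, and the 8 non-classical ones to 2586 and 1787 CPM. The part of the neutrophil RNA and of the monocyte mix in the result was not tested. Without the cells called to hold B or C1q RNA (40 GS-KO and 82 control cells left), the median was −2.28, and without cells of at least 1000 CPM of C1q it was −1.09. In the first of these settings H2-Ab1 was at −6.26, near its −5.62 without the GS-KO cell with most class II UMIs. The parts of that cell and of B or C1q RNA were not told apart. At least 10000 CPM of the 9 genes was found in 1 of 51 GS-KO cells and 19 of 105 control cells, and the median cell had 550 CPM in GS-KO and 1290 in control cells.

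B-like cells had class II levels close to those of the richest macrophages in both libraries. Cd74 had 18548 CPM in GS-KO and 16160 in control cells, a ratio of 1.15 (1.12 to 1.17), and H2-Aa had 8011 and 6117, a ratio of 1.31 (1.26 to 1.36). H2-Ab1 went the other way, with 2640 in GS-KO and 3187 in control cells, a ratio of 0.829 (0.780 to 0.880). H2-Eb1 had 71.1 CPM in GS-KO and 143 in control cells, 2.01-fold lower (1.42 to 2.94), and was the 1 member of 9 past 1.5-fold, with 0 higher. The background was 25.7% lower and 6.36% higher among 7167 genes, and the medians were −0.27 for the members and −0.21 for all genes. Ciita had 73.1 CPM in GS-KO and 104 in control cells, a ratio of 0.700 (0.478 to 1.00), and Ifi30 had 761 and 995, a ratio of 0.764 (0.683 to 0.854).

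B-like cells were even in class II RNA. At least 10000 CPM was reached by 117 of 120 GS-KO cells and 455 of 470 control cells, and the cell with most gave 2.41% and 0.615% of the sum. Their depths were close, with medians of 3823 UMIs in GS-KO and 3668 in control cells. The mix of finer B-like clusters differed between the libraries. The one led by Ebf1, Ighd and Mef2c held 42 GS-KO and 3 control cells, the one led by Cd79a, Iglc3 and Ms4a1 19 and 284, and the one led by Igkc 59 and 168. The sum of Cd74, H2-Aa, H2-Ab1 and H2-Eb1 had ratios of 1.21, 1.23 and 1.15 in them. The part of this mix in the B-like ratios was not tested. RNA of other cells was lower in GS-KO B-like cells, with 7 and 13 of 13 macrophage markers detected at a summed 532 and 1478 CPM, C1q at 31.6 and 274 CPM and 11 hepatocyte markers at 96.8 and 810 CPM. Without B-like cells that held C1q RNA, the members' median was −0.17, Cd74 was at 0.35 and H2-Aa at 0.49.

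The H2-Ab1 to H2-Aa ratio compares UMI counts within a library, and both chains are needed to build I-A. It was lower in the GS-KO library in all 6 groups, with overlapping intervals in the shallow cluster. The groups come from the same mice, so they are not separate observations of a difference. Kupffer-like cells had 0.773 H2-Ab1 UMIs per H2-Aa UMI (0.701 to 0.852) in GS-KO and 0.897 (0.884 to 0.910) in control cells. Mmp12 macrophage-like cells had 0.619 (0.584 to 0.656) in GS-KO and 0.879 (0.869 to 0.890) in control cells, and Gpnmb macrophage-like cells 0.652 (0.607 to 0.701) and 0.863 (0.844 to 0.883). The shallow cluster had 0.681 (0.574 to 0.807) in GS-KO and 0.807 (0.765 to 0.852) in control cells, and monocyte-like cells 0.574 (0.453 to 0.723) and 0.815 (0.753 to 0.881). B-like cells had the lowest ratio in each library, at 0.330 (0.310 to 0.351) in GS-KO and 0.521 (0.505 to 0.538) in control cells.

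The ratio was also read cell by cell where counts allowed it. The cells of a library come from 1 mouse, so they are not replicates and describe only how the ratio spread within it. Among cells with at least 10 H2-Aa UMIs, 97 of 115 GS-KO B-like cells, 21 of 22 GS-KO Mmp12 macrophage-like cells and 13 of 15 GS-KO Gpnmb macrophage-like cells lay below the control median of their class. In Kupffer-like cells 10 of 16 did and in the shallow cluster 3 of 6. Leaving out each GS-KO cell in turn kept the ratio between 0.326 and 0.332 in B-like, between 0.608 and 0.655 in Mmp12 macrophage-like, between 0.720 and 0.830 in Kupffer-like, between 0.635 and 0.685 in Gpnmb macrophage-like and between 0.661 and 0.728 in shallow cells. In monocyte-like cells it lay between 0.263 and 0.624, and the 0.263 was reached by leaving out 1 cell. With cells thinned to 1000 UMIs, the ratio was 0.833 in GS-KO and 0.763 in control cells of the shallow cluster. This was the reverse order on few UMIs, and the other 5 groups kept theirs. The thinned GS-KO interval included the control value in Kupffer-like (0.725 against 0.893), Gpnmb macrophage-like (0.711 against 0.899) and monocyte-like cells (0.567 against 0.741). It did not in Mmp12 macrophage-like and B-like cells. Without the 3 GS-KO cells with most H2-Aa and H2-Ab1 UMIs, the interval included the control value only in Kupffer-like, shallow and monocyte-like cells. The Kupffer-like ratio was then 0.805 (0.691 to 0.936) against 0.897. The strains of the mice, and so their H2 alleles, are not given in the labels, and their part in this ratio was not tested.

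**Figure D5:**
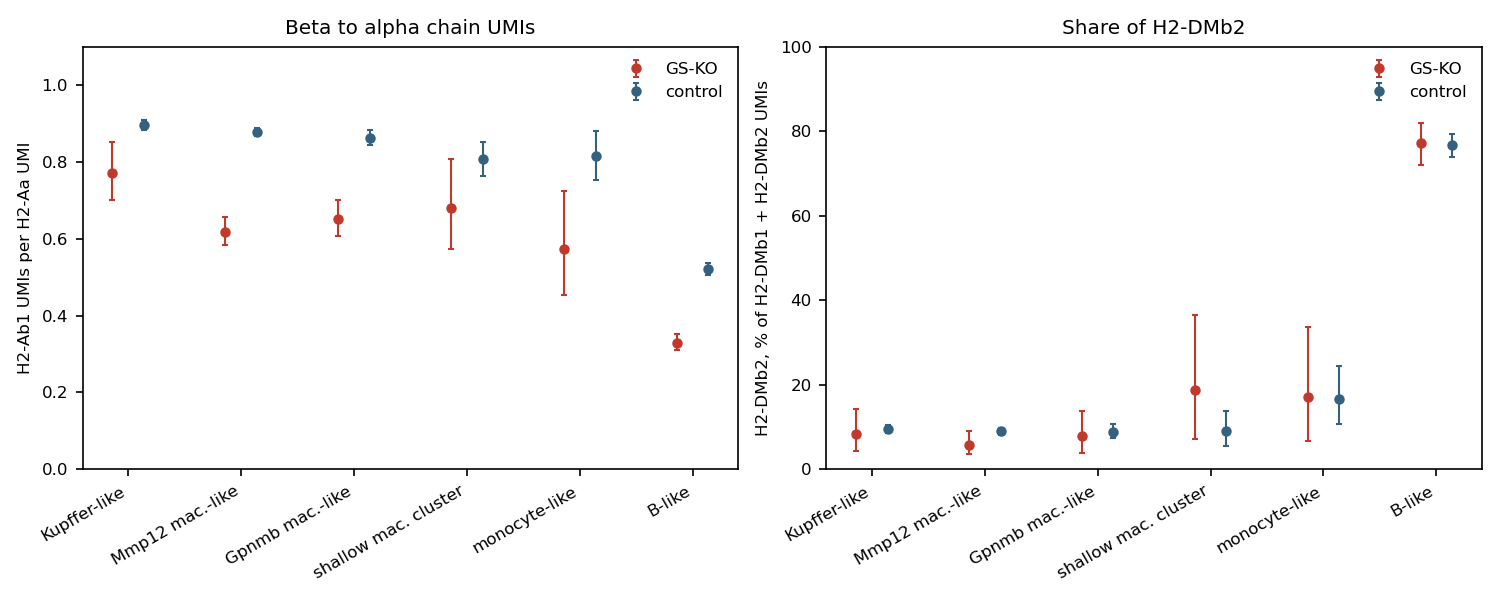
Left, H2-Ab1 UMIs per H2-Aa UMI; right, H2-DMb2 as a percentage of H2-DMb1 plus H2-DMb2 UMIs; GS-KO left and red, control right and blue in each pair, with 95% binomial intervals. The left panel is lower in GS-KO in each group, with B-like cells at 0.330 and 0.521, and the right panel is near 77% in B-like cells and under 19% elsewhere.

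H2-Eb1 was low beside H2-Ab1 in every group. It had 0.0150 UMIs per H2-Ab1 UMI in GS-KO and 0.0197 in control Kupffer-like cells, 0.0256 and 0.0195 in Mmp12 macrophage-like cells and 0.0269 and 0.0449 in B-like cells. H2-Ea, the alpha chain gene of I-E, was not analysed here. Cd74 had between 2.24 and 2.95 UMIs per H2-Aa UMI in the 6 groups of both libraries. The libraries differed beyond counting error in B-like cells, at 2.32 (2.23 to 2.40) in GS-KO and 2.64 (2.58 to 2.70) in control cells. In the shallow cluster they differed the other way, at 2.95 (2.60 to 3.34) in GS-KO and 2.31 (2.22 to 2.42) in control cells.

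The beta chain of H2-DM is encoded by a pair of neighbouring genes, and B-like cells held mostly H2-DMb2 UMIs, where macrophage groups held mostly H2-DMb1. H2-DMb2 had 437 CPM in GS-KO and 423 in control B-like cells, against 30.2 and 40.1 in Kupffer-like and 40.5 and 48.3 in Mmp12 macrophage-like cells. H2-DMb1 had 128 CPM in both GS-KO and control B-like cells, and 332 and 384 in Kupffer-like cells. H2-DMb2 was thus 77.3% (72.0 to 82.0) of the H2-DMb UMIs in GS-KO and 76.8% (74.0 to 79.3) in control B-like cells. It was 8.33% (4.38 to 14.1) in GS-KO and 9.47% (8.55 to 10.4) in control Kupffer-like cells, and 17.1% and 16.7% in monocyte-like cells. The share in control T, NK, neutrophil, hepatocyte and low-RNA cells, which count as background, was 11.8% (7.03 to 18.2), nearer to that of macrophages than to that of B-like cells. The paired transcripts were 95.9% identical over 783 aligned coding bases and 89.0% over 292 aligned bases 3′ of the coding part. Over the aligned part of their last 300 bases, where 3′ reads fall, they were 75.5% identical. The parts 3′ of the coding part are 294 bases in H2-DMb1 and 461 in H2-DMb2, so those last 300 bases are not matching positions. Some reads may thus have been dropped or assigned to the wrong copy.

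Ciita was sparse in all cells. Without thinning, a Ciita UMI was found in 26.1% (10.2 to 48.4) of GS-KO and 48.5% (44.2 to 52.8) of control Kupffer-like cells, in 44.4% (25.5 to 64.7) and 60.8% (56.1 to 65.4) of Mmp12 macrophage-like cells and in 26.7% (19 to 35.5) and 32.1% (27.9 to 36.6) of B-like cells. After thinning to 1000 UMIs these shares were 0% (0 of 22 cells, up to 15.4%) and 5.85% in Kupffer-like, 0% (up to 12.8%) and 6.91% in Mmp12 macrophage-like and 5.93% and 9.21% in B-like cells. T-like cells, which should lack it, had 0% in both libraries without thinning at median depths of 6240 and 5685.5 UMIs. At equal depth the counting intervals of Ciita overlapped, so a difference was not detectable there.

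Classes that should hold little class II RNA held more of it in the control library. T-like cells had 32.0 CPM of Cd74 in GS-KO and 78.9 in control cells, neutrophil-like cells 77.3 and 898, and hepatocyte-like cells 12.7 and 123. After thinning to 1000 UMIs, Cd74 was detected in 2.56% of GS-KO and 7.69% of control T-like cells, against 90.9% and 98.5% of Kupffer-like cells at median depths of 16827 and 15782 UMIs. T-like and hepatocyte-like levels were small beside the Kupffer-like and B-like levels in both libraries. Members at least 1.5-fold lower were 4 of 5 tested in T-like, 4 of 4 in neutrophil-like and 5 of 6 in hepatocyte-like cells, with backgrounds of 27.8%, 20.6% and 29% of genes lower. In each of these classes 0 were higher, with backgrounds of 7.1%, 13% and 22.2%. Among the hepatocyte-like members counted as lower, H2-DMa and H2-DMb1 had 0 GS-KO UMIs. Their control levels of 4.32 and 4.38 CPM were under the 7.61 CPM that a GS-KO count of 0 allows. Those calls therefore rest on the prior count. RNA of other cells moved the same way. C1q summed to 20.7 CPM in GS-KO and 139 in control T-like cells, to 22.5 and 369 in neutrophil-like cells and to 15.2 and 145 in hepatocyte-like cells. Of 13 macrophage markers 9 were detected in GS-KO and 13 in control T-like cells, with per-cell sums of 0 to 3766 and 0 to 13652 CPM. In neutrophil-like cells these were 10 and 13, at 0 to 2934 and 0 to 16309 CPM. In hepatocyte-like cells they were 6 and 13, at 3586 to 27104 and 3103 to 69559 CPM. The list includes Apoe and no hepatocyte-like cell was below 3103 CPM, so this sum is not read as RNA of other cells. The 4 B-defining genes were at 0 in GS-KO neutrophil-like cells and summed to 225 CPM in control ones, and hepatocyte-like cells had median depths of 5122 UMIs in GS-KO and 23845 in control cells. The part of these differences in the members' counts was not tested. Ifi30 was an exception among hepatocyte-like cells, at 53.3 CPM in GS-KO and 70.5 in control cells, a ratio of 0.755 (0.466 to 1.16).

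Endothelial-like cells had 162 CPM of Cd74 in GS-KO and 3625 in control cells, and 7 of 7 tested members were at least 1.5-fold lower, with 0 higher and a background of 15.7% lower and 13.2% higher among 7645 genes. C1q, a macrophage product, moved with them at 297 CPM in GS-KO and 4207 in control cells, with all 3 C1q genes detected in each, and of 13 macrophage markers 10 were detected in GS-KO and 13 in control cells. Over the whole class, the part of macrophage RNA in this difference was not tested. In the finer cluster of deeper endothelial-like cells, where C1q was 307 CPM in GS-KO and 259 in control cells, the sum of the 4 class II genes was 260 CPM in 62 GS-KO and 1192 in 65 control cells. In the finer cluster of shallower cells it was 131 CPM in 26 GS-KO and 17090 in 68 control cells, with C1q at 187 and 13969 CPM.

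Other genes of the class II pathway, 43 measured of 44 listed, were counted in the same way and against the same backgrounds. In Kupffer-like cells 40 were tested, with 5 at least 1.5-fold higher (12.5%) and 8 lower (20%), near the background of 11.7% and 25%. In Mmp12 macrophage-like cells 41 were tested, with 0 higher and 10 lower (24.4%), beside 11.9% and 22.9%. Gpnmb macrophage-like cells had 7 of 33 higher (21.2%) and 6 lower (18.2%), beside 17.9% and 22.5%. The shallow cluster had 2 of 20 higher (10%) and 8 lower (40%), beside 19.2% and 26.4%. Monocyte-like cells had 3 of 31 higher (9.68%) and 8 lower (25.8%), beside 11.5% and 15.5%, and B-like cells had 5 of 38 higher (13.2%) and 7 lower (18.4%), beside 6.36% and 25.7%. The median log2 ratio over the tested genes was −0.10 in Kupffer-like, −0.18 in Mmp12 macrophage-like and −0.23 in B-like cells.

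Of 8 lysosomal proteases that trim Cd74 or cut antigens, 1 was at least 1.5-fold higher in GS-KO Kupffer-like cells (12.5%) and 0 lower, beside the background of 11.7% higher and 25% lower, and with 8 genes nothing is read from these counts. Ctss, the protease that makes the last cut of Cd74, had 2702 CPM in GS-KO and 2472 in control Kupffer-like cells, a ratio of 1.09 (1.03 to 1.16). Ctsl, which does the same cut mainly in thymic epithelium, had 433 and 236 CPM, a ratio of 1.84 (1.56 to 2.15). In monocyte-like cells Ctsd, an aspartic protease, had 179 CPM in GS-KO and 450 in control cells, 2.51-fold lower, and in B-like cells Ctsb, a cysteine protease, had 37.5 and 135, 3.59-fold lower. Of 3 other class II genes tested in B-like cells 0 were at least 1.5-fold higher and 1 lower, beside the background of 6.36% and 25.7%. H2-Oa and H2-Ob, the chains of H2-DO, which restrains H2-DM, had 194 and 111 CPM in GS-KO and 200 and 191 in control B-like cells, and H2-Ob was the lower one.

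Of the genes that act on class II transcription, Rfx5, a subunit of the RFX complex, was at 0 in GS-KO and 7.93 CPM in control Kupffer-like cells, at least 1.05-fold lower, and at 0 and 18.8 CPM in B-like cells, at least 3.17-fold lower, with the 0 counted as 3 UMIs of the class. Irf4, a factor of lymphoid and myeloid cells, was at 0 in GS-KO and 5.21 CPM in control Kupffer-like cells. That is under the 7.55 CPM that a GS-KO count of 0 allows. In B-like cells Irf4 was at 69.2 and 26.0 CPM, a ratio of 2.66 (1.67 to 4.21). Irf1, induced by interferon gamma, had 161 and 58.8 CPM in Gpnmb macrophage-like cells, a ratio of 2.73 (1.89 to 3.88). In the shallow cluster Irf1 was at 0 and 54.0 CPM, with a ratio interval of 0 to 1.08 that includes 1. Irf8 was at 296 and 141 CPM in the shallow cluster, and Nfyc, a subunit of NF-Y, at 27.4 CPM from 7 UMIs in GS-KO and 6.07 in control Gpnmb macrophage-like cells.

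Of the remaining genes with the highest or lowest ratio in a group, Cxcr4, a chemokine receptor that pairs with Cd74, had 245 CPM in GS-KO and 107 in control monocyte-like cells, a ratio of 2.28 (1.70 to 3.06). In B-like cells Cxcr4 had 498 and 212 CPM, a ratio of 2.35 (2.00 to 2.77). Cd40, a receptor for T-cell help, had 17.7 CPM in GS-KO and 56.5 in control monocyte-like cells, 3.19-fold lower, and Cd274, the ligand of PD-1, had 25.3 and 15.8. In Mmp12 macrophage-like cells Ifngr1, a chain of the interferon gamma receptor, had 388 and 276 CPM, a ratio of 1.41 (1.2 to 1.64), and Cd4, the coreceptor that binds class II on T cells, had 2.13 and 16.5, a ratio of 0.129 (0.00326 to 0.732) on 1 GS-KO UMI. Mif, a ligand of Cd74, had 710 and 408 CPM in the shallow cluster, a ratio of 1.74 (1.25 to 2.39). Socs1 ranked highest in Kupffer-like cells on 3 GS-KO UMIs, at 7.55 and 3.74 CPM, and Icosl in Mmp12 macrophage-like cells on 4, at 8.53 and 5.78 CPM. The lowest ranks rested on 0 or 1 GS-KO UMI for H2-Oa in the Mmp12 group, Jak2 and Cd274 in the Gpnmb group and Cd44 in the shallow cluster.

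Across 16 clusters of the control library, the genes most like the sum of Cd74, H2-Aa, H2-Ab1 and H2-Eb1 (Pearson r of log2(CPM + 10) among 10496 genes) were Lmo2 at 0.966, Cd83 at 0.956, Ly86 at 0.947, Ctss at 0.942 and Unc93b1 at 0.942. These r values describe clusters that share a library and its depth. Lmo2, a transcription cofactor of blood cells, ranged from 0 to 237 CPM and was highest in B-like cells. Cd83, a surface protein known to keep class II on the membrane, ranged from 0 to 158 CPM and was highest in Mmp12 macrophage-like cells. Among the members outside the sum, H2-DMb2 had the lowest r with it, at 0.831, and H2-DMb1 the highest, at 0.963.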

How the data were processed

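Single-cell RNA of 2 libraries was analysed. The authors deposited raw UMI count matrices made with Cell Ranger on mm10, per the submitters' processing notes; the file headers carry software version 3.1.0. The labels name 3PrimeV2 chemistry and in 1 place single-nucleus RNA, and which applies was not settled. No barcode was merged between libraries. Free RNA and empty droplets already removed upstream are not described in the sources used here.

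Barcodes with at least 500 UMIs, 200 genes and at most 20% mitochondrial UMIs were kept. Scrublet (expected rate 5%) removed 7 GS-KO and 24 control doublets. Counts were normalised to 10000, log transformed and clustered together (2000 variable genes without 12 class II genes, 30 components, 15 neighbours, Leiden resolution 1, seed 1; no batch correction). A marker counted as met in a cluster with a level at least 2 times that in other cells (10 CPM added) and UMIs in 20% of cells. A named class was compared if it was a macrophage (the shallow cluster included) or monocyte class or had 30 cells in each library. NK-like cells were not compared, nor was the low-RNA cluster of 34 GS-KO and 151 control cells, which no marker list named, nor a dividing cluster whose GS-KO cells held neutrophil and whose control cells held macrophage RNA.

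UMIs were summed per class and library. CPM carries exact Poisson, shares exact Clopper-Pearson and ratios conditional binomial 95% intervals. Log2 ratios used a prior count of 0.5, members with at least 20 UMIs over both libraries were tested, and 1.5-fold changes were counted. The backgrounds took all genes past the same UMI minimum and were not matched for level. A count of 0 was read as under 3 counts. The script for ratios was tested on simulated data. Named were the 9 members and, of the pathway list, the 2 genes highest and 2 lowest by ratio per class and members of a role described with its counts. For likeness, genes needed 200 control UMIs and clusters 20 control cells. A gene of the pathway list is not reported here by name, though counts over the list include it. The members, lists, promoter letters and tests were chosen with earlier results of these data known.

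Cells were read and clustered with scanpy 1.11.5, anndata 0.12.19 and igraph 0.11.9 under Python 3.11.15. Intervals came from scipy 1.17.1, tables from pandas 2.3.3 and numpy 2.4.6, doublet neighbours from scikit-learn 1.9.0 and plots from matplotlib 3.10.9.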

Additional observations from a re-analysis of the deposited data

Results flagged for a closer look

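The ratio of H2-Aa (GS-KO over control) was 0.323 in monocyte-like cells and 1.31 in B-like cells, on opposite sides of 1. The difference between these ratios was not tested, since each rests on 1 mouse per group. In monocyte-like cells 81.4% of the GS-KO H2-Aa UMIs came from 1 cell.

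Barcodes left out by the cell rule also held class II RNA. The 9 genes had 2486 CPM of non-mitochondrial UMIs (2342 to 2636) in 704 GS-KO barcodes and 3289 CPM (3228 to 3351) in 1799 control barcodes, above the 6.69 and 0.899 CPM that a count of 0 allows. C1q had 1497 and 2389 CPM and Cd79a 64.7 and 59.0 CPM in the same barcodes. These values come from barcodes outside every comparison, and the difference was not tested.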

How the results depend on the processing

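Over 16 alternatives, the median log2 ratio of the members kept its sign in Kupffer-like (−1.62 to −0.31), Mmp12 macrophage-like (−0.26 to −0.03), monocyte-like (−2.94 to −1.01) and B-like cells (−0.29 to −0.17). It crossed 0 in Gpnmb macrophage-like cells (−0.36 to 0.24) and the shallow cluster (−1.03 to 0.33). In Mmp12 macrophage-like cells the members' interval bounds had medians of −0.27 and 0.10, and the median over all genes was −0.07. In B-like cells the median over all genes was −0.21. The kept sign in the Mmp12 and B-like classes is therefore not read as a result about the members. Some alternatives changed nothing in a class, so keeping the sign there says nothing. Leaving out cells of at least 1000 CPM of C1q removed no Kupffer-like cell, and other UMI minimums left the Kupffer-like median at −0.91. Leaving out cells with dendritic markers removed no B-like cell. Values of the median outside the counting interval were as follows. Without the GS-KO cell with the most class II UMIs it was −1.35 in Kupffer-like, −1.97 in monocyte-like cells and −0.47 in the shallow cluster, and without the 3 such cells −1.62, −2.46 and −1.03, with −0.36 in Gpnmb macrophage-like cells. Thinned to 1000 UMIs before summing it was −0.31 in Kupffer-like cells and −0.60 in the shallow cluster, with H2-Eb1 of Kupffer-like cells reversed to 0.87 and H2-DMb2 there at 0.92. Without the cells called to hold B or C1q RNA it was −1.49 in Kupffer-like and −2.28 in monocyte-like cells. This left 18 of 23 GS-KO and 364 of 530 control Kupffer-like cells. C1qa had 8826 CPM in GS-KO and 9892 in control cells of that class, so cells with C1q were not removed as such there. Without cells holding dendritic markers the median was −2.94 in monocyte-like cells, the value of Ciita on few UMIs, and −0.47 in the shallow cluster. At a mitochondrial limit of 10% it was 0.33 in the shallow cluster. Leaving cells out leaves fewer UMIs by construction. The cells with most class II UMIs were left out of the GS-KO library only, which pushes the ratio down by construction. The cause was otherwise not tested. Of 800 comparisons of single log2 ratios, 610 stayed within the interval, 189 moved beyond it and 1 was labelled reversed. That label does not count every change of sign. Cd74 in the shallow cluster went from 0.22 to as low as −0.87, with 5 of 14 alternatives below 0. H2-Aa in Gpnmb macrophage-like cells went from 0.30 to as low as −0.36, with 1 of 14 below 0. Of 156 summed levels 59 stayed within and 97 moved beyond theirs, and of 48 shares of cells 23 stayed and 25 moved. The alternatives without 3 cells, without C1q-rich cells, by finer cluster and for the H2-Ab1 to H2-Aa ratio (14 of 18 within the interval, 4 beyond) were chosen after seeing the data. No paired analysis was possible because each group has 1 mouse. Members with few UMIs, above all Ciita, H2-Eb1 and H2-DMb2, are limited by the 19 to 28 GS-KO cells of each macrophage group.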

Other observations

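The dividing cluster, which was not compared, held 13 GS-KO and 92 control cells. Its control cells had 6653 CPM of Cd74 and 37.8 CPM of Ciita, less Cd74 than the macrophage groups of that library, with Ifi30 at 1101 CPM. Of its control cells 56 of 92 had at least 10000 CPM of the 9 genes. In hepatocyte-like cells, Ifi30 had more UMIs than Cd74 in the GS-KO library, at 4.20 per Cd74 UMI (1.54 to 14.3), and fewer in the control library, at 0.575 (0.536 to 0.617). In dividing hepatocyte cells of the control library the ratio was 1.49 (1.33 to 1.67), with 111 CPM of Ifi30 and 74.4 CPM of Cd74.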
